A study of Mus musculus with 144 samples.

Results

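The genes described here are 9 genes of the interleukin-1 family and the inflammasome: Il1a, Il1b, Il18, Il1rn, Il1rap, Nlrp3, Pycard, Casp1 and Gsdmd. They were taken by symbol from a table of 55254 gene symbols. Of the 9 genes, 7 were among the 8679 genes counted as measured, that is, at 1 FPKM or more in at least 10% of cells. FPKM is fragments per kilobase of exon and per 1000000 reads, so levels of different genes can be set side by side. Il1rn and Il1rap were below that limit and are given by their levels only.

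The data were RNA-seq libraries of single cells, 1 library each, sorted from the retina of Iba1-EGFP mice aged 16 weeks and labelled as microglia. Iba1 marks microglia and other macrophages, so the sort can hold both. All cells carried the reporter, and they came either from mice with no treatment (54 cells) or from mice at day 2 (54 cells) or day 4 (36 cells) after crush of the optic nerve. Animals are not named in the labels, which leaves 1 sample of cells per time point, and no difference between time points was tested. Each of the 3 plates held cells of every time point in separate rows, so that row and time point cannot be told apart.

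Interleukin-1 alpha and interleukin-1 beta act on the same receptor, and the antagonist encoded by Il1rn occupies that receptor without signalling. Interleukin-1 beta and interleukin-18 are made as inactive precursors that caspase-1 cuts, whereas the alpha precursor can signal uncut. Caspase-1 is activated on the inflammasome, in which a sensor such as NLRP3 recruits the adaptor ASC, encoded by Pycard, and it also cuts gasdermin D, which forms the membrane pore of pyroptosis. In the retina, interleukin-1 alpha from microglia is known as a signal to astrocytes. The series title names interleukin-1 alpha, and the question addressed is how the alpha and beta genes, the antagonist and the inflammasome genes stood in single cells before and after the injury.

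Il1a and Il1b are neighbours on mouse chromosome 2, on the same strand and 54.6 kb apart, and differed widely in the number of cells with high values (below). Their promoters are shown for that reason, from 250 bases before to 50 bases after the RefSeq start, 5′ to 3′ in the direction of transcription, build GRCm38.p6. Capitals mark matches to the motifs searched.
Il1a promoter, chr2:129309923-129310222, minus strand: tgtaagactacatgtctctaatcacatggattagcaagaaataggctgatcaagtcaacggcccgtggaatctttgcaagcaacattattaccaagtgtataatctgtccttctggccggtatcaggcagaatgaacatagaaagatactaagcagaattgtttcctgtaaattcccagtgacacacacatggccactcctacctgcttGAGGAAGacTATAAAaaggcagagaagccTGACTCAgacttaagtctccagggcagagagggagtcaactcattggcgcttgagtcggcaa
Il1b promoter, chr2:129371090-129371389, minus strand: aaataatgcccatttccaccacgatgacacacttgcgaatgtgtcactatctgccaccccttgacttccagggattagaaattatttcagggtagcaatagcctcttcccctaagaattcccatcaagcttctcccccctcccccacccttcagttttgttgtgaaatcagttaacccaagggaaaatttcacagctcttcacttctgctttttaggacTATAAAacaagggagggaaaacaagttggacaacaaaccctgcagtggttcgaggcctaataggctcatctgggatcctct
Both strands were searched for 5 motifs, none of which overlapped another in these windows. The TATA letters, TATAAA, were in both windows, starting 32 bases before the start of Il1a and 31 bases before that of Il1b, and were held by 13.6% of 32851 promoters of the same length. The PU.1 letters, GAGGAAG, were in the Il1a window at 41 bases before the start, and in 13.6% of all promoters. The AP-1 letters, TGANTCA, were in the Il1a window at 12 bases before the start, and in 7.81% of all promoters. Neither window held the C/EBP letters, TTGCNNAA, found in 10.8% of all promoters, or the NF-kB motif, found in 4.51%. Promoter sequences were given for 8 of the 9 genes, and a match describes letters only.

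The cells carried the markers of their label. Of 10 microglia markers, 3 or more were at 20 FPKM in every cell but 1, a day 4 cell (35 of 36). At least 3 markers of another cell type reached that level in 5, 8 and 4 cells, most of them border macrophage markers (4, 7 and 2 cells). T and NK cell markers were at 0 in every cell. Assigned reads had a median of 5.31 M per cell (0.190 to 18.9 M, where M is 1000000), and genes at 1 FPKM or more had medians of 2792 (untreated), 3469 (day 2) and 3957.5 (day 4). Detected genes therefore moved with time point, and their part in the differences below was not tested beyond the values given for each gene.

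Values of a gene fell mostly into an upper and a lower group of cells (the plot of single-cell values), and a cell is called high for a gene at 20 FPKM or more. For some of the genes, low values were more frequent in plate columns with a high well. Of 55 wells low in Il1b that shared a plate column with a high well, 43 (78.2%) held Il1b reads, against 35 of 80 (43.8%) without such a well. For Il18 the counts were 63 of 92 (68.5%) and 14 of 32 (43.8%), and for Nlrp3 75 of 84 (89.3%) and 29 of 40 (72.5%). Casp1 did not show this, with 65 of 76 (85.5%) and 35 of 40 (87.5%), nor did Il1rap, with 4 of 14 and 36 of 128. For Gsdmd the counts were 79 of 87 (90.8%) and 13 of 16 (81.25%). Every well low in Il1a had a high well in its column, and these 67 wells held a median of 5.02 FPKM, so low Il1a values cannot be told apart from reads of neighbouring wells. The same limit holds for Pycard, where all 69 low wells had a high well in their column and held reads, with a median of 0.911 FPKM.

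**Figure D1:**
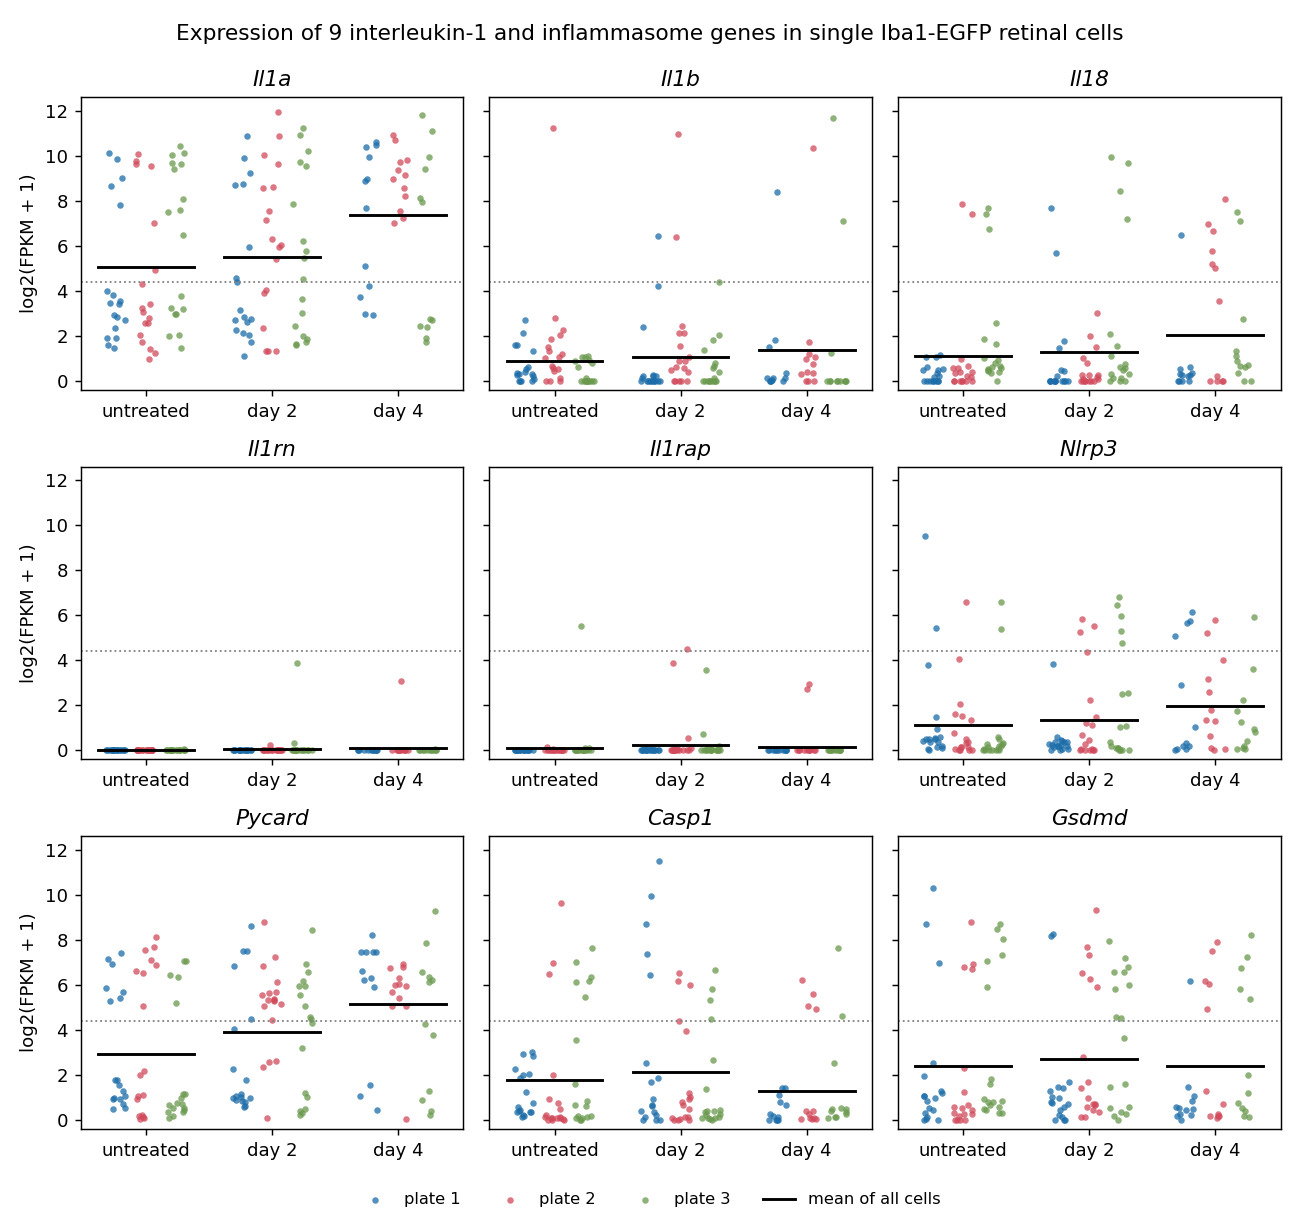
Level of each of the 9 genes in each cell, as log2(FPKM + 1), by time point (x axis) and plate (colour); the black line is the mean over all cells of the time point and the dotted line marks 20 FPKM. Il1a and Pycard have many cells above the line at every time point, Il1b has 9 in all and Il1rn has none.

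Il1a was the most abundant of the 9 genes at every time point. Its gene spans chr2:129299610-129309972 on the minus strand (ENSMUSG00000027399, GRCm38). In untreated cells it ranged from 0.979 to 1366 FPKM with a median of 9.87, at day 2 from 1.14 to 3972 with a median of 32.2, and at day 4 from 2.29 to 3529 with a median of 340. The ranges overlapped, and 5 cells of day 2 and 6 of day 4 lay above the highest untreated cell. The number of cells in the upper group differed too. High cells made up 38.9% of untreated cells (21 of 54, exact 95% interval 25.9 to 53.1%), 55.6% at day 2 (30 of 54, 41.4 to 69.1%) and 72.2% at day 4 (26 of 36, 54.8 to 85.8%). These intervals cover counting error only.

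Within high cells the plates differed in direction. Pooled, the Il1a medians of high cells were 739 FPKM (untreated), 385 (day 2) and 614 (day 4), but day 4 was above untreated in plate 1 (737 against 521) and plate 3 (829 against 738) and below it in plate 2 (530 against 771). The mean level over all cells was 252 ± 399 FPKM (SD over 54 cells), 390 ± 760 (54 cells) and 631 ± 787 (36 cells). On the scale of mean log2(FPKM + 1), day 4 exceeded untreated by 2.33, above 98.1% of the measured genes, beside a median difference of 0.45 over all measured genes. The plates did not share this. The difference was 2.63 in plate 1 and 4.48 in plate 2, but -0.13 in plate 3, where 10 of 18 untreated and 6 of 12 day 4 cells were high. In plate 2 the counts were 6 of 18 and 12 of 12. On the log2 of the mean level all plates were positive (1.57, 1.72 and 0.85), and with a pseudocount of 10 plate 3 was at 0.04. With each cell scaled to an equal upper quartile the pooled difference was 0.52. Without plate 3 the difference was 3.55, without plate 2 it was 1.25.

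Day 4 exceeded day 2 in Il1a by 1.86, with 2.39, 2.69 and 0.50 in the 3 plates. Day 2 and untreated cells differed by 0.47, with 0.24, 1.78 and -0.62 by plate. Adjusted for how many genes each cell showed, day 4 exceeded untreated by 0.67 and day 2 by 1.07. Without the cells that carried markers of another type, day 4 exceeded untreated by 2.52, with 2.46, 4.61 and 0.56 in the 3 plates.

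Exons of Il1a overlap those of Gm14023 on the other strand, and strand use in counting is not given in the sources used here. Gm14023 had a mean of 90.3 FPKM and was high in 65 cells, of which 63 were also high in Il1a. Of the Il1a values above 0, 52.8% were not whole reads, and how much of each level belongs to the other gene was not tested.

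Il1b was high in few cells and very high in some of them. Its gene spans chr2:129364570-129371139 on the minus strand (ENSMUSG00000027398). Untreated cells ranged from 0 to 2418 FPKM with a median of 0.396, day 2 cells from 0 to 1998 with a median of 0.151, and day 4 cells from 0 to 3306 with a median of 0.0954. High cells numbered 1 of 54 (1.85%, 0.0469 to 9.89%), 4 of 54 (7.41%, 2.06 to 17.9%) and 4 of 36 (11.1%, 3.11 to 26.1%). The intervals overlapped at all time points.

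The mean Il1b level rested on single cells. It was 45.7 FPKM (untreated), 41.4 (day 2) and 141 (day 4), and the highest cell gave 98.1%, 89.3% and 65.0% of the sum. Without that cell the means were 0.894, 4.51 and 50.9 FPKM. In mean log2(FPKM + 1), day 4 exceeded untreated by 0.50, with 0.36, -0.17 and 1.30 in the 3 plates, close to the 0.45 of all measured genes. Adjusted for detected genes it was 0.16, and with upper quartile scaling -0.16. 

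The 9 cells high in Il1b were looked at for their other markers, a choice made after their values were seen. All 9 had at least 6 of 10 microglia markers at 20 FPKM. In 3 of the 9, at least 3 markers of another cell type were high as well, against 14 of the 135 other cells. The first, a day 2 cell of plate 3 with 20.1 FPKM of Il1b, had 6 border macrophage markers, among them Pf4 at 5152 and Mrc1 at 217 FPKM. The second, a day 2 cell of plate 2 with 84.1 FPKM of Il1b, had 5 monocyte markers, with Chil3 at 1316, Ccr2 at 245 and Plac8 at 238 FPKM, and 1.53 FPKM of Il1a. The third, a day 4 cell of plate 2 with 1296 FPKM of Il1b, had 3 genes of the neutrophil list. They were S100a9 at 1060, S100a8 at 287 and Csf3r at 56.3 FPKM, while Ly6g was at 0.0825 and Retnlg, Mmp8, Camp and Ngp were at 0. Csf3r was high in 21 untreated, 27 day 2 and 15 day 4 cells, so it does not set this cell apart. The same cell had 7 microglia markers, among them Tmem119 at 888 and P2ry12 at 365 FPKM. In the other 6 cells no list but that of microglia reached 3 markers, and they included the cells with 3306, 2418 and 1998 FPKM. The part of other cell types in the Il1b values was not tested beyond this.

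Set against each other in single cells, Il1a exceeded Il1b in 135 cells and was below it in 9. Of all cells, 70 were high in Il1a only, 7 in both, 2 in Il1b only and 65 in neither. The 65 were 33 of 54 untreated, 22 of 54 day 2 and 10 of 36 day 4 cells. Their Il1a values are low and cannot be told apart from reads of neighbouring wells. The count of 135 and the per-cell ratios below include these cells. Both of the Il1b-only cells were of day 2, with 5.74 and 1.53 FPKM of Il1a. The median per-cell log2 ratio, with 1 FPKM added to each gene, was 2.98 (untreated), 3.77 (day 2) and 7.40 (day 4). By plate it was 3.03, 1.95 and 6.05 in untreated cells and 5.71, 8.16 and 2.58 at day 4, so plates 1 and 2 were higher at day 4 and plate 3 was lower. The ratio of the mean levels gave another order, 5.52, 9.42 and 4.47, because of the single cells very high in Il1b. Among the 77 cells high in Il1a 9.09% were high in Il1b, and among the 9 cells high in Il1b 77.8% were high in Il1a.

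**Figure D2:**
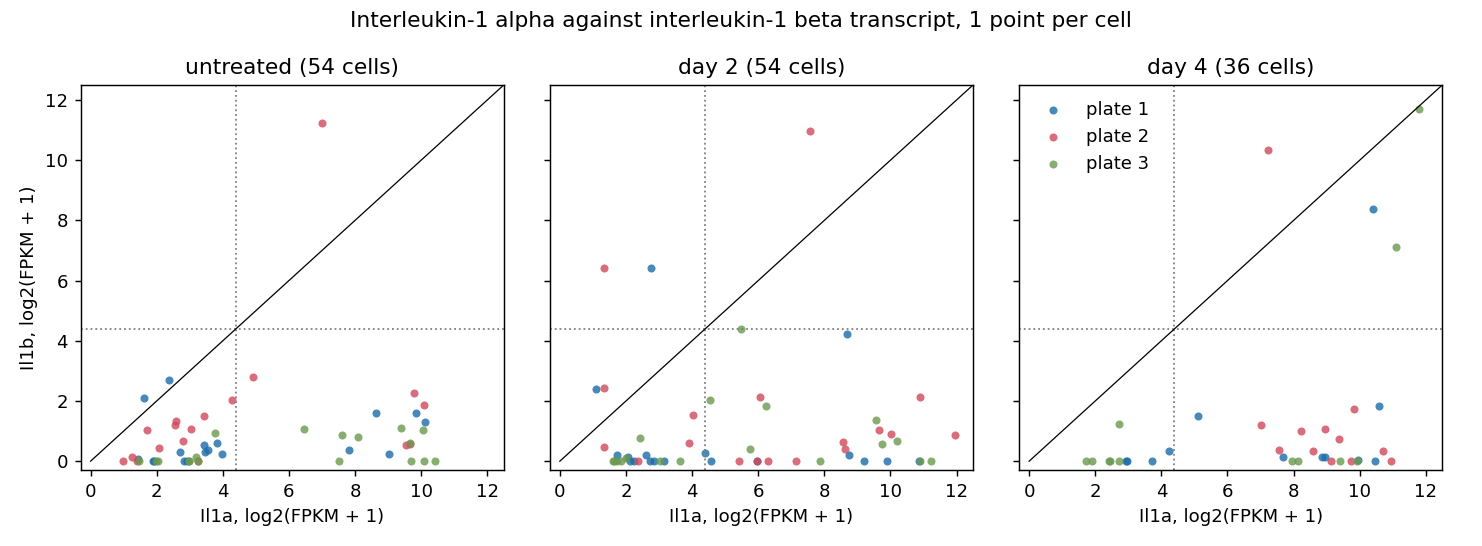
Il1a (x axis) against Il1b (y axis) as log2(FPKM + 1), 1 point per cell and 1 panel per time point, coloured by plate; dotted lines mark 20 FPKM and the diagonal marks equal levels. Most points lie along the bottom, 7 cells are high in both genes, and 9 lie above the diagonal.

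Il18 encodes the other cytokine that caspase-1 cuts, and its gene lies at chr9:50554827-50581840 on the plus strand (ENSMUSG00000039217). Untreated cells ranged from 0 to 234 FPKM with a median of 0.371, day 2 cells from 0 to 970 with a median of 0.172, and day 4 cells from 0 to 266 with a median of 0.491. Few cells were high: 5 of 54 (9.26%, 3.08 to 20.3%), 6 of 54 (11.1%, 4.19 to 22.6%) and 9 of 36 (25%, 12.1 to 42.2%). The day 4 count came mostly from plate 2 with 6 of 12 cells, against 1 and 2 of 12 in plates 1 and 3. Day 4 exceeded untreated by 0.92 in mean log2(FPKM + 1), with 0.41, 2.36 and -0.01 by plate, and by 0.33 once adjusted for detected genes. Mean levels of 16.8, 47.3 and 28.9 FPKM included, at day 2, a pair of plate 3 cells at 970 and 817 FPKM, and without the higher one that mean was 29.9.

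The antagonist Il1rn (chr2:24336853-24351494, plus strand, ENSMUSG00000026981) was near the limit of detection. It was above 0 in 6 cells of the 3 time points, with 403 reads in all. The highest values were 13.8 FPKM in a day 2 cell and 7.58 FPKM in a day 4 cell, with 127 and 270 reads. No cell was high, and 0 of 54, 0 of 54 and 0 of 36 cells allow shares of up to 5.56%, 5.56% and 8.33% (3 cells of the total), with exact 95% upper limits of 6.60%, 6.60% and 9.74%. The day 4 cell was the one with S100a8 and S100a9 named above, and held 1296 FPKM of Il1b. The day 2 cell held 0.315 FPKM of Il1b. The other 8 cells high in Il1b had no Il1rn read.

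Il1rap encodes the accessory chain that the interleukin-1, interleukin-33 and interleukin-36 receptors share (chr16:26581704-26730117, plus strand, ENSMUSG00000022514). It was at 1 FPKM or more in 6 cells and high in 2, an untreated cell at 44.5 FPKM and a day 2 cell at 21.6 FPKM. Both were high in Il1a and in Nlrp3 too, with 1097 and 188 FPKM of Il1a and 40.8 and 36.9 FPKM of Nlrp3. The median was 0 at each time point, and the highest value at day 4 was 6.67 FPKM. Of the chains it pairs with, Il1r1, the signalling receptor of interleukin-1 alpha and beta, had means of 0.000673, 0.157 and 0.000481 FPKM. Il1rl1, of the interleukin-33 receptor, had means of 0.0176, 0.0208 and 2.52 FPKM. Il1rl2, of the interleukin-36 receptor, had means of 4.76, 3.52 and 4.22 FPKM and was high in 4, 2 and 3 cells. Il18r1, of the interleukin-18 receptor, was at 0 in every cell. The decoy receptor Il1r2 had means of 2.24, 4.42 and 3.65 FPKM.

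Nlrp3, the sensor, lies at chr11:59541568-59566956 on the plus strand (ENSMUSG00000032691). Untreated cells ranged from 0 to 730 FPKM with a median of 0.249, day 2 cells from 0 to 111 with a median of 0.24, and day 4 cells from 0 to 70.4 with a median of 1.22. High cells were 5 of 54 (9.26%, 3.08 to 20.3%), 8 of 54 (14.8%, 6.62 to 27.1%) and 7 of 36 (19.4%, 8.19 to 36%). The groups overlapped, and the highest cell of all was untreated. In mean log2(FPKM + 1), day 4 exceeded untreated by 0.86, positive in each plate (0.87, 1.09 and 0.63). This difference was above 72.7% of measured genes, and 43.4% of all measured genes were positive in each plate. The mean level had the other order, 19.5 FPKM (untreated) against 9.62 (day 2) and 11.6 (day 4), and 69.5% of the untreated sum was the cell at 730 FPKM. Without it the untreated mean was 6.05 FPKM. With each cell scaled to an equal upper quartile, the difference of day 4 from untreated was -0.16, and adjusted for detected genes it was 0.29.

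Pycard, the gene of the adaptor ASC, was the inflammasome gene found in most cells (chr7:127989708-127993867, minus strand, ENSMUSG00000030793). Untreated cells ranged from 0.0225 to 277 FPKM with a median of 1.21, day 2 cells from 0.0538 to 435 with a median of 21.4, and day 4 cells from 0.0322 to 616 with a median of 66.5. High cells made up 37% (20 of 54, 24.3 to 51.3%), 53.7% (29 of 54, 39.6 to 67.4%) and 72.2% (26 of 36, 54.8 to 85.8%). The pooled medians of high cells were 107, 50.5 and 78.7 FPKM, but as for Il1a, day 4 was above untreated in plate 1 (172 against 57.8) and plate 3 (86.6 against 84.6) and below it in plate 2 (61.6 against 126). Untreated cells were high in 7, 8 and 5 of 18 by plate, and day 4 cells in 9, 11 and 6 of 12.

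Pycard at day 4 exceeded untreated by 2.20 in mean log2(FPKM + 1), with 2.41, 1.97 and 2.22 in the 3 plates, above 97.6% of measured genes. Day 4 exceeded day 2 by 1.22 (2.62, 0.53 and 0.50), and without plate 1 by 0.51. Day 2 exceeded untreated by 0.98, with -0.21, 1.45 and 1.72 by plate, and without plate 1 by 1.58. Adjusted for how many genes each cell showed, day 4 exceeded untreated in Pycard by 1.48 (1.68, 1.96 and 1.51). With each cell scaled to an equal upper quartile, day 4 exceeded untreated by 0.38, with 0.79, -0.71 and 1.08 by plate, and the median of all measured genes moved from 0.45 to -0.18. Compared as the log2 of the mean level, day 4 minus untreated was 1.6, -0.02 and 1.89 by plate. Exons of Pycard overlap those of Gm45205 on the other strand, which had a mean of 27.5 FPKM and was high in 62 cells, all of them also high in Pycard. Of Pycard values above 0, 50.7% were not whole reads, as for Il1a.

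Casp1, the inflammasome protease, lies at chr9:5298508-5307290 on the plus strand (ENSMUSG00000025888). Untreated cells ranged from 0 to 789 FPKM with a median of 0.457, day 2 cells from 0 to 2922 with a median of 0.484, and day 4 cells from 0 to 197 with a median of 0.294. High cells were 9 of 54 (16.7%, 7.92 to 29.3%), 13 of 54 (24.1%, 13.5 to 37.6%) and 6 of 36 (16.7%, 6.37 to 32.8%). Shares at the 3 time points were within each other's intervals. The mean level was 30.5, 94.1 and 11.6 FPKM, and a day 2 cell of plate 1 gave 57.5% of the day 2 sum. Without the highest cell of each time point the means were 16.2, 40.7 and 6.26 FPKM. Day 4 differed from untreated by -0.49 (-0.73, 0.36 and -1.11 by plate) and from day 2 by -0.82 (-2.47, 0.12 and -0.12). Adjusted for detected genes the 2 differences were -1.02 and -1.08, and with upper quartile scaling -1.08 and -1.09. Casp1 and Gsdmd were the members whose day 4 difference stood lowest, with Casp1 above 2.83% of measured genes against untreated and 1.83% against day 2.

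Gsdmd, the pore-forming substrate of caspase-1, lies at chr15:75862327-75867408 on the plus strand (ENSMUSG00000022575). Untreated cells ranged from 0 to 1275 FPKM with a median of 0.766, day 2 cells from 0 to 639 with a median of 1.23, and day 4 cells from 0 to 297 with a median of 0.671. High cells were 13 of 54 (24.1%, 13.5 to 37.6%), 17 of 54 (31.5%, 19.5 to 45.6%) and 11 of 36 (30.6%, 16.3 to 48.1%). The shares lay within each other's intervals, as for Casp1. Mean levels were 74.0, 50.4 and 36.6 FPKM, while the difference of day 4 from untreated in mean log2(FPKM + 1) was 0.00 (-1.12, 0.96 and 0.16 by plate). Adjusted for detected genes that difference was -1.24, with upper quartile scaling -0.99 and on the log2 of the mean level -0.995. Day 4 differed from day 2 by -0.31, negative in each plate (-0.54, -0.02 and -0.37), as were 8.54% of all measured genes.

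**Figure D3:**
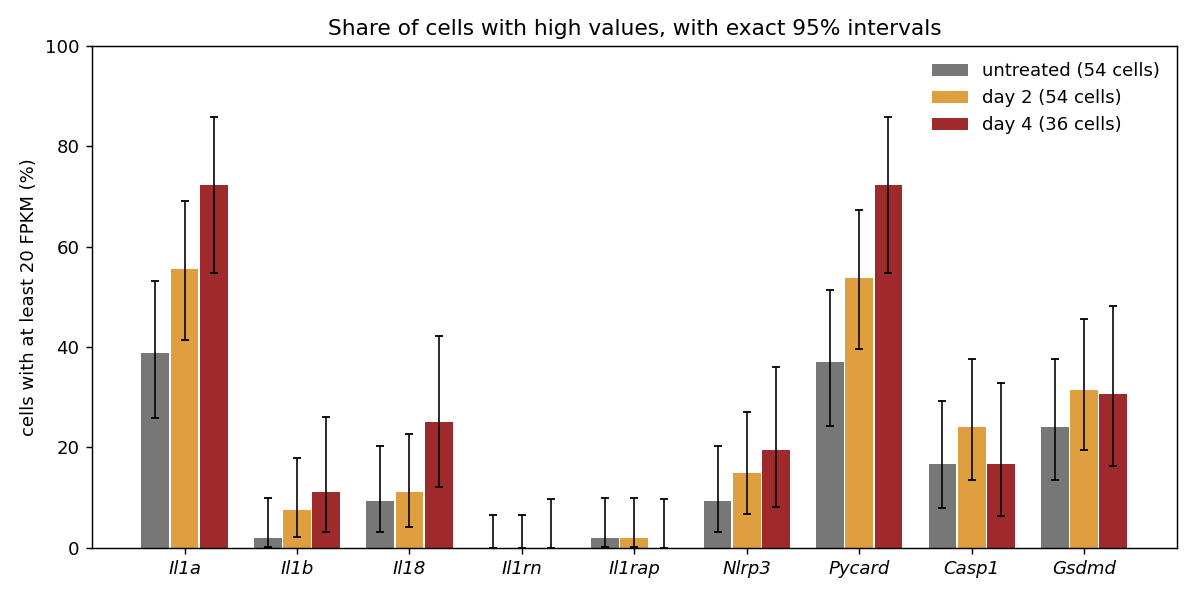
Percentage of cells at 20 FPKM or more for each gene (x axis) in untreated cells (54), day 2 (54) and day 4 (36); whiskers are exact 95% binomial intervals, which cover counting error only. Il1a and Pycard stand at 72.2% at day 4, and at 38.9% and 37% in untreated cells. Each time point is 1 sample of cells, so the whiskers do not test a difference between time points. The Pycard share was higher at day 4 in each plate. The Il1a share was higher in plates 1 and 2 but not in plate 3 (10 of 18 untreated and 6 of 12 day 4 cells).

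Ranked by the share of high cells, the order in untreated cells was Il1a, Pycard, Gsdmd, Casp1, then Il18 and Nlrp3 together, Il1b and Il1rap together, and Il1rn. Each gene and the next in that order had overlapping intervals. At day 4 the intervals of Il1a and Pycard (both 54.8 to 85.8%) lay above that of Gsdmd (16.3 to 48.1%), and those of the other neighbours overlapped. The shares of all genes come from the same cells, and the intervals cover counting error only. They therefore do not test a difference between genes.

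To set the genes beside the rest of the transcriptome, a difference was called when it was at least 1 on the scale of mean log2(FPKM + 1) and was of one sign in the 3 plates. For day 4 against untreated, 1 of 7 measured members was called higher, Pycard, and none lower, while 18.9% of all measured genes were called higher and 0.346% lower. For day 2 against untreated no member was called, and 3.89% of all genes were higher and 0.0576% lower. For day 4 against day 2, Il1a and Pycard were called higher and none lower, beside 9.57% and 0.864% of all genes. The first count is near its background, and counts of this size single out no property of the 7 genes as a set. The median difference of the 7 genes was 0.86, 0.31 and 0.60 in the 3 comparisons, beside 0.45, 0.21 and 0.25 over all measured genes. The comparisons share cells with each other. With upper quartile scaling, 116 genes were called higher and 744 lower at day 4 against untreated, in place of 1636 and 30, and no member was called higher and Casp1 was called lower.

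The wider pathway was followed in 48 further genes, of which 46 were in the table and 18 were measured. At day 4 against untreated 1 of the 18 was called higher and 1 lower, beside 18.9% and 0.346% of all measured genes. At day 2 against untreated none was called, beside 3.89% higher and 0.0576% lower. At day 4 against day 2 1 was called higher, beside 9.57%. Counts this small single out no property of the 18 genes as a set. The medians of the 18 genes were 0.40, 0.23 and 0.12, close to those of all measured genes. Myd88, the adaptor that carries the signal of the interleukin-1 and interleukin-18 receptors, had means of 16.2, 19.8 and 49 FPKM and was high in 5 of 54, 9 of 54 and 14 of 36 cells. Its difference of day 4 from untreated was 1.81 (0.79, 2.47 and 2.18 by plate) and from day 2 was 1.13. Exons of Myd88 overlap those of Acaa1a, and 38.5% of its values were not whole reads. Txnip, whose product binds NLRP3, was lower, with means of 75.6, 46.9 and 25.3 FPKM and high cells in 25 of 54, 20 of 54 and 11 of 36. Its difference of day 4 from untreated was -1.05 (-0.97, -1.10 and -1.07 by plate), and its exons overlap Gm15441.

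Of the other pathway genes at 20 FPKM or more on average, none was called. Ninj1, which ruptures the membrane after pore formation, had 109, 96.8 and 108 FPKM, and Casp8, an initiator caspase that can also cut interleukin-1 beta, had 65.8, 77.1 and 65.9. Capns1, the small subunit of the calpains that trim the interleukin-1 alpha precursor, had 26.8, 40.8 and 33.7 FPKM. P2rx7, the ATP-gated channel upstream of NLRP3, had 21.2, 12.1 and 8.70, and Casp4, the caspase of the non-canonical inflammasome, 26.2, 14.2 and 10.8. Naip2 (10.8, 23.2 and 15) and Naip5 (23.3, 12.3 and 2.84) are near-identical copies among which reads may be split, so their levels are uncertain. No other ligand of the family was measured: Il33 was at 0 in untreated and day 2 cells and had a mean of 0.648 FPKM at day 4.

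Over all cells, 13.9% were high in Nlrp3, 52.1% in Pycard and 19.4% in Casp1. With such shares, a small count of cells high in all 3 says nothing about a relation between the genes. All 3 were high in 4 cells, 1 untreated, 2 of day 2 and 1 of day 4. Gsdmd was high as well in the 2 cells of day 2, and Il18 in the cell of day 4. No cell was high in all 3 together with Gsdmd and a cytokine that caspase-1 cuts. Gsdmd, Il1b and Il18 were high in 28.5%, 6.25% and 13.9% of all cells, so this absence says no more. Of the cells, 63 were high in exactly 1 of the 3 genes and 53 in none. Cells were high in 0 to 5 of the 9 genes, with medians of 1 (untreated), 2 (day 2) and 2.5 (day 4).

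**Figure D4:**
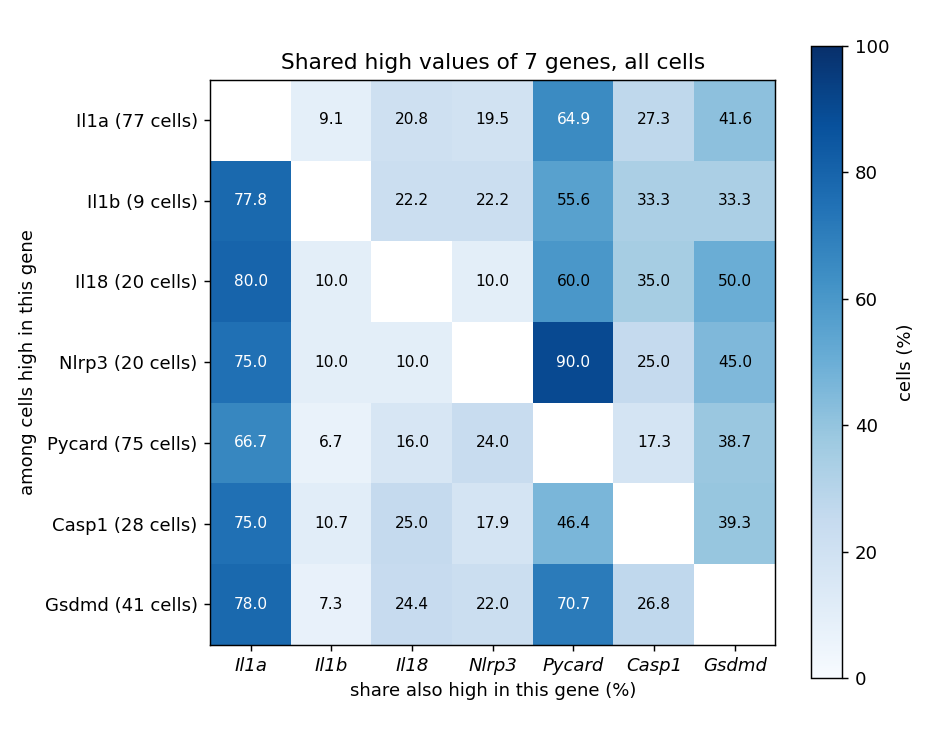
For the 7 measured genes, the cells high in the gene of each row (number in brackets) and the percentage of them also high in the gene of each column, over all cells. The largest share shown is that of Pycard among cells high in Nlrp3, 90.0%, and no share in the Il1b column is above 10.7%.

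Most Nlrp3-high cells were also high in Pycard, the transcript of the adaptor. Of 20 cells high in Nlrp3, 18 (90.0%) were high in Pycard, against 57 of 124 others (46%), and the 18 were spread over untreated (4), day 2 (7) and day 4 (7). Casp1 was high in 5 of the 20 cells high in Nlrp3 (25%) and in 23 of 124 others (18.5%). Among the 75 cells high in Pycard 17.3% were high in Casp1, and among the 69 others 21.7%. Gsdmd was high in 32 of 77 cells high in Il1a (41.6%) and in 9 of 67 others (13.4%). Nlrp3 and Il18 were both high in 2 cells, both of day 4.

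Over the 21 pairs of measured members, Spearman's rho across cells, after removing the mean of each time point and plate, had a median of 0.13 and ran from -0.02 to 0.32. The cells share their library preparation, and these values are weak. The highest was that of Il1a with Gsdmd, which was 0.08 once detected genes were regressed out. That of Nlrp3 with Pycard was 0.20, with 0.30, -0.02 and 0.29 by plate, and 0.12 once detected genes were regressed out. Cells high in 0 or 1 member had a median of 2379 detected genes, those high in 2 or 3 had 3861, and those high in 4 or more had 4105.5. How far detected genes set the counts of shared high values was not tested.

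Genes outside the pathway were picked as those with the highest rho to Il1a among all measured genes. Their values are therefore the largest of many, unlike those of the member pairs. The 3 measured genes closest to it over all cells were Ier2 (rho 0.74), an immediate-early gene, Nfkbia (0.73), the NF-kB inhibitor that NF-kB itself induces, and Junb (0.71), a subunit of AP-1. The 99th percentile over all measured genes was 0.47, which the picked genes exceed by the way they were picked. A positive rho in every plate was required of them. By plate the values ran from 0.67 to 0.81 for Ier2, 0.60 to 0.82 for Nfkbia and 0.61 to 0.78 for Junb. With detected genes regressed out the pooled values were 0.61, 0.60 and 0.57. Ier2 was high in 75 of 77 cells high in Il1a and 27 of 67 others, and Nfkbia in 75 and 20.

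Ier2 and Junb belong to a list of 12 immediate-early and dissociation genes, which are known to be induced when tissue is taken apart. The mean log2(FPKM + 1) of the list correlated with Il1a at rho 0.67, with 0.74, 0.65 and 0.55 by plate, over cells that share handling and library preparation. In untreated cells its median was 8.42 in the 21 cells high in Il1a and 3.09 in the 33 others. At day 2 the medians were 7.75 and 3.46, and at day 4 they were 7.76 and 4.18. High list values did not always come with Il1a, since 11 cells low in Il1a were at or above 7.93, the median of all cells high in it. The relation was not particular to Il1a. With the list, rho was 0.38 for Gsdmd, 0.37 for Nlrp3, 0.25 for Casp1, 0.18 for Il1b and 0.10 for Il18. For Pycard it was 0.24, with 0.41, 0.03 and 0.26 by plate. Medians of the list in cells high and low in Pycard were 8.16 and 3.73 (untreated), 7.66 and 4.94 (day 2) and 7.71 and 4.18 (day 4). Over all cells of a time point the list had means of 5.87, 6.16 and 6.52. The part of the list in the Il1a and Pycard differences between time points was not tested.

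**Figure D5:**
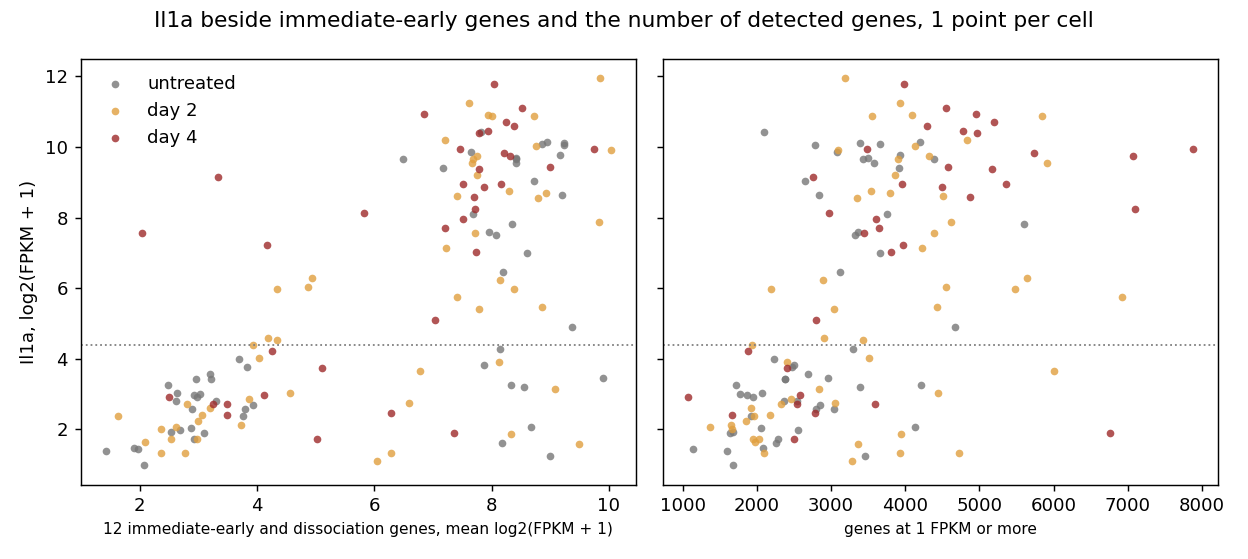
Il1a as log2(FPKM + 1) (y axis) against the mean log2(FPKM + 1) of 12 immediate-early and dissociation genes (left) and against the number of genes at 1 FPKM or more (right), 1 point per cell, coloured by time point; the dotted line marks 20 FPKM. Most cells high in Il1a lie at the upper end of the gene list, with a median of 7.93 against 3.30 in the other cells, and in both panels the time points are mixed.

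The closest genes of the other measured members had lower values. For Nlrp3 they were Ppp1r15a, a stress-induced phosphatase subunit (rho 0.45), Rpp21 (0.44) and Farsa (0.44), and all 20 cells high in Nlrp3 were high in Ppp1r15a, against 64 of 124 others. For Pycard they were P2ry12, the ADP receptor of resting microglia (0.40), Tmem50a (0.39) and Rhob (0.39). For Gsdmd they were Gnl1 (0.52), Nagpa (0.51) and Sf1 (0.50). For Casp1 they were Gpsm2, P2rx4, an ATP-gated channel, and Oas2, an interferon-induced enzyme (each 0.40), high in 2, 18 and 4 of the 28 cells high in Casp1. For Il18 they were P2rx1 (0.43), Smpdl3b (0.42) and Atp13a1 (0.41), and for Il1b they were Timm8a1 (0.45), Aldh3b1 (0.45) and Ruvbl2 (0.43). Those named for Il1b were high in 2, 1 and 3 of the 9 cells high in Il1b, so these rho values rest mostly on low Il1b values. With ranks taken within each time point and plate, Farsa with Nlrp3 was 0.13 and P2rx4 with Casp1 0.23, while the values of Ier2, Nfkbia and Junb with Il1a were 0.68, 0.66 and 0.66. Il1rn and Il1rap, not measured, were left out of this search.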

How the data were processed

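The submitters' processing notes name STAR 2.7.2b, featureCounts 1.6.1, cutadapt 1.16, Trimmomatic 0.36 and Trim Galore 0.4.4, and as builds mm10 and GRCm38.p6. How strand and multiply matching reads were handled is not given in the sources used here. Per the labels' protocols, libraries were made by Nextera XT tagmentation of cDNA amplified in 1 tube, and no molecular identifiers are mentioned. The authors deposited FPKM values in 1 table of 55364 rows with 1 column per cell, with positions and exon lengths (bases). Where a symbol was repeated (110 rows), the one highest on average was kept.

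The commonest product of FPKM and exon length within a cell was taken as 1 read, which gave its depth. A median of 59.5% of values above 0 in a cell (49.2 to 69.1%) were whole reads within 0.01 read, so no count model was fitted. Values were compared as log2(FPKM + 1), which understates differences of low genes. No p-value or standard error was computed, since each time point is 1 sample, and SDs describe cells. Plates were treated as a technical batch. All plates hold the time points in the same proportion. Shares have exact Clopper-Pearson 95% intervals. Even the most similar pair of cells differed in some gene by 3932 FPKM, so no cell was counted as a repeat. All cells were kept, doublets were not called, and the 9 genes, the lists and the alternatives were chosen with earlier results of these data known. Genes were named by rule: the 9 members, the 3 measured genes with the highest rho per measured member (positive in each plate, without predicted, ribosomal or overlapping genes), and pathway genes that were called or at 20 FPKM on average at a time point. The receptors and Il33 were named outside it, after their values were seen. The procedure was tested on simulated data. Python 3.11.15 with pandas 2.3.3, NumPy 2.4.6 and SciPy 1.17.1 was used.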

Additional observations from a re-analysis of the deposited data

How the results depend on the processing

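No paired analysis was possible because the result comes from no test and the numbers in the labels are plates and wells, not animals. Numbers of members called at day 4 against untreated were 2 higher with a pseudocount of 0.1 (Nlrp3 and Pycard). They were 2 with a pseudocount of 10 and 2 without cells with markers of another type (Il1a and Pycard in each). Without plate 3 the number was 3 (Il1a, Il18 and Pycard), and with upper quartile scaling 0. Over all measured genes 2786, 452, 1625, 2201 and 116 were called higher in that order, in place of 1636. The background thus moved with the setting as well, and these counts single out no property of the members. On the log2 of the mean FPKM the count was 1, but it was Il1a in place of Pycard, beside 1160 of all measured genes. Members called lower there were 1 on the log2 of the mean and 1 with upper quartile scaling (Casp1 in each). With detected genes as a covariate 2 were lower (Casp1 and Gsdmd). Over all measured genes 528, 744 and 242 were called lower in that order, in place of 30. At day 2 against untreated 1 was called higher without plate 1 (Pycard), 1 without plate 3 (Il1a) and 1 without cells with markers of another type (Pycard). Over all measured genes 828, 378 and 363 were called higher in that order, in place of 338. At day 4 against day 2 the number higher was 1 (Il1a) with a pseudocount of 10, with the covariate and without plate 1. It was also 1 (Il1a) without cells of another type and relative to the median of all genes. It was 0 on the log2 of the mean and with upper quartile scaling, and 3 without plate 3 (Il1a, Nlrp3 and Pycard). Over all measured genes the counts higher were 224, 436, 1033, 863, 513, 900, 160 and 1602 in that order, in place of 831. Casp1, 1 gene, was called lower with the covariate, without plate 2 and relative to the median. Over all measured genes 215, 180 and 191 were called lower in these 3 settings, in place of 75. The median log2 ratio of Il1a to Il1b was 1.43 at day 2 and 4.55 at day 4 with a pseudocount of 10, and at day 4 it was 2.16 from the mean levels and 3.80 without plate 2. The cause was not tested for any of these. Leaving out the highest cell of a time point and ranking within time point and plate were chosen after seeing the data. Shares of high cells at 10 or 40 FPKM, or after thinning to 2000000 reads (4, 9 and 0 cells left out), stayed within the counting interval except Pycard at day 2, 33.3% at 40 FPKM, and Il1rap at day 2, 0 at 40 FPKM.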
